A study of Mus musculus with 7 samples.

Results

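The olfactory receptor genes of mouse chromosomes 10 and 11 with a plain Olfr number were examined in RNA from whole olfactory epithelium at postnatal day 7. The deposited count table holds 150 of them, 69 on chromosome 10 and 81 on chromosome 11, among 1110 numbered Olfr genes in the genome and 50600 genes in all. Genes were taken by symbol and location, and this set was chosen with earlier results of these data known. A further 33 genes on the same chromosomes with other Olfr symbols, such as those with a pseudogene suffix, were not included. The study sequenced 7 libraries. A single library came from a wild-type mouse (Amigo1+/+, WT), 3 came from Amigo1-/- mice (KO), and 3 came from Amigo1neo/neo mice (neo), in which a neomycin cassette takes the place of the coding region. Both mutant groups are therefore without functional Amigo1 per the labels, and the KO against neo comparison sets animals with the cassette beside knock-out animals, with a further difference in sample names given below. All animals were 7 days old. The labels do not give strain or sex, and do not say whether the libraries of a group came from separate litters. The p-values given here therefore cover only how far these libraries differ.

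Olfactory receptors are G protein-coupled receptors for odorants and form the largest gene family of the mouse, arranged in clusters on most chromosomes. Each mature olfactory sensory neuron transcribes a single receptor allele, so the level of a receptor in whole tissue reflects both how many neurons chose it and how much RNA each of them holds. In bulk tissue fewer cells of a type and less RNA per cell cannot be told apart. The receptor couples through the G protein subunit Gnal to the adenylyl cyclase Adcy3 and to a cyclic nucleotide-gated channel that includes Cnga2. Amigo1 encodes a leucine-rich repeat cell-surface protein.

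Libraries held 14879415 to 21343058 gene counts. Amigo1 had 744 counts in WT, 0, 8 and 16 in KO and 11, 5 and 1 in neo, as the labels state. The WT library and neo library 1 carried high Xist and near-zero Ddx3y and the other 5 the reverse, so sex was not balanced. Every KO library differed from WT in these sex genes, so KO against WT cannot be told apart from sex. Neo library 1 also stood apart in 3 muscle genes, which summed to 428 counts per 1000000 (CPM, scaled by TMM) there and to 1.79 to 9.06 CPM elsewhere. Bone genes (Bglap, Ibsp, Col1a1, all detected) summed to 4218 to 6746 CPM in KO and 1518 to 3191 CPM in neo. The 8 markers of mature olfactory neurons, none of them at 0, summed to 2792 to 3149 CPM in KO, 3240 to 3749 in neo and 3232 in WT. Sample names carry a code and a number, and for each WT and KO share a form that differs in neo. The labels explain neither, and neither can be told apart from the neo genotype.

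The receptors lay in 8 runs of neighbouring genes, called subclusters here, in which no gene started more than 1 Mb from the next. Coordinates are on GRCm38. Subcluster 10-1 held 10 genes from Olfr1358 to Olfr57 (chromosome 10, 78517428 to 79036274), and 10-2 held 59 genes from Olfr9 to Olfr827 (128989431 to 130214403). On chromosome 11, subcluster 11-1 held 19 genes from Olfr56 to Olfr1380 (48978889 to 49565859), 11-2 held 5 (50966530 to 51049050) and 11-3 held 2 (52144593 to 52213987). Subcluster 11-4 held 23 genes from Olfr30 to Olfr225 (58454105 to 59615060), 11-5 held 29 from Olfr20 to Olfr412 (73350783 to 74366218) and 11-6 held 3 (87884979 to 87920967). Orientation differed between subclusters: 18 of 19 genes of 11-1 lay on the plus strand, while 10-2 had 28 plus and 31 minus. In the GENCODE vM21 annotation 148 of the 150 were protein-coding and 2, Olfr779 and Olfr225, were polymorphic pseudogenes.

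Levels between genes were compared as TPM, which divides by transcript length and sums to 1000000 in a library. The 150 receptors summed to 272 TPM in the mean of the 7 libraries, 12.8% of the TPM of all numbered Olfr genes. Chromosome 10 contributed 139 TPM from 69 genes and chromosome 11 133 TPM from 81. The median gene had 1.79 TPM on chromosome 10, 1.42 on chromosome 11 and 1.499 among the 960 other numbered Olfr genes. Subcluster 10-2 alone held 45.4% of the summed TPM, followed by 11-5 with 17.0%, 11-4 with 14.8% and 11-1 with 13.5%. The remainder came from 10-1 (5.73%), 11-2 (2.01%) and 11-6 (1.55%), and 11-3 held 0.0143 TPM.

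Expression was spread over many receptors at similar low levels. Of the 150, 107 had a mean of 0.5 to 3 TPM, 27 were above and 16 below. In every library the same number, 143, had at least 1 count, and the 10 highest receptors held 17.5 to 19.5% of the summed TPM. None was among the 20 most abundant Olfr genes, whose highest reached 23.8 TPM, and the best-placed receptor ranked 31st by mean TPM. Across the 150 genes, TPM ranks of different libraries correlated with Spearman rho of 0.832 to 0.908 for 6 pairs of the same genotype and 0.785 to 0.895 for 15 pairs of different genotypes, a description over genes that are not independent.

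The 5 highest receptors were Olfr805, Olfr1395, Olfr827, Olfr812 and Olfr332. Olfr805, in the middle of 10-2, had 5.83 TPM in WT, 2.59, 11.15 and 3.66 in KO and 8.38, 4.4 and 4.34 in neo. Its first place by mean (5.76 TPM) came with the widest range, since KO libraries 1 and 2 lay at its extremes. In read counts Olfr805 was steadier, at 3.59 to 5.95 CPM over the 7 libraries. Olfr1395 of 11-1 (mean 5.28 TPM) had 4.62 TPM in WT, 3.52 to 4.36 in KO and 5.74 to 7.34 in neo, and its KO and neo libraries did not overlap. Olfr827, the last gene of 10-2, had 5.77 TPM in WT, 3.62 to 4.04 in KO and 4.70 to 7.89 in neo. Olfr812 of 10-2 ranged from 4.09 to 6.29 TPM and Olfr332 of 11-4 from 3.37 to 7.74. These 5 means, 4.83 to 5.76 TPM, were closer together than the libraries of each gene, so their order is not resolved. The highest receptors of the other subclusters were Olfr393 in 11-5 (4.33 TPM), Olfr1352 in 10-1 (2.63), Olfr464 in 11-6 (2.43) and Olfr54 in 11-2 (1.67).

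**Figure D1:**
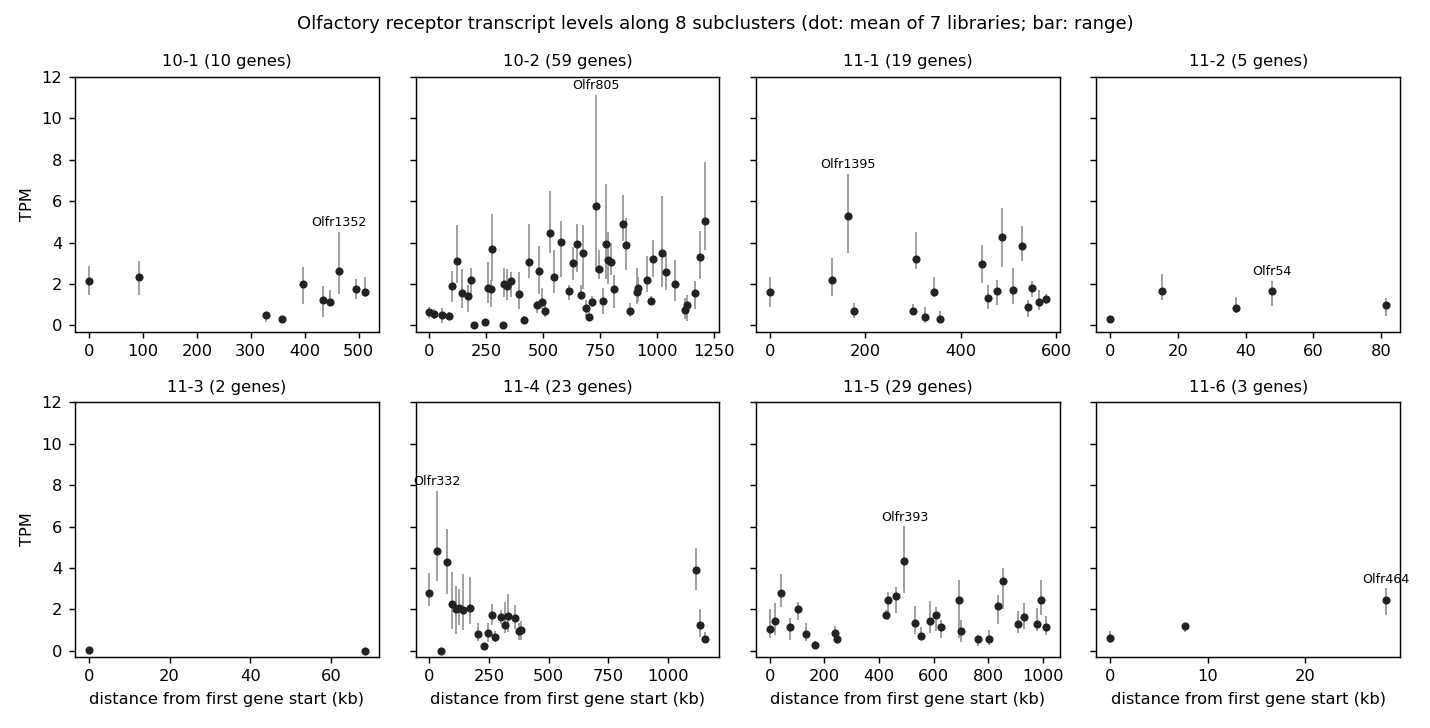
Deposited TPM (vertical axis) of each receptor against the distance of its start from the first gene of its subcluster in kb (horizontal axis), with dots for the mean of 7 libraries and bars from the lowest to the highest library. In the larger subclusters high and low receptors lie side by side, while in 11-6 the mean rises along its 3 genes. Olfr805 has the highest mean, 5.76 TPM, and a bar up to 11.15, and both genes of 11-3 sit at or near 0.

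Receptors of unlike level could be neighbours. In 11-4, Olfr332 (4.83 TPM) and Olfr330 (4.30 TPM) flanked Olfr331, which had 0 counts and 0 TPM in all 7 libraries and shares 53.5% of its 50-base windows with other genes, most of them with Olfr330 (41.3%). Olfr330 and Olfr331 were singled out after their values were seen. In 11-3 neither Olfr1373 nor Olfr1371 had a count in any library. A count of 0 allows up to 0.141 to 0.202 counts per 1000000 gene counts in a library, by a limit of 3 counts that covers counting error only. They too share windows with other genes (59.6% and 66.6%), so low counts of uniquely placed reads do not show that any of these 3 receptors is silent.

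Sequence shared with other genes was measured beside the counts, since a read that fits several genes has no single origin. The count table had 14.5 to 19.6% of reads in a separate multimapping row. Of the 150 receptors, 126 shared at least one window of 50 bases with a transcript of another gene and 24 shared none. The median receptor shared 5.98% of its windows, and 30 receptors shared over 20%. The extreme case was Olfr247, which had 0 counts in every library and 2.35 to 4.14 TPM. All of its windows are in the predicted gene Gm10310, and their coding sequences of 960 bases are identical. Olfr20 likewise had 0 counts and 0.60 to 2.02 TPM, with 90.8% of its windows in the Gm49340 annotation and an overlap with Spata22 on the same strand. For both, the TPM is an estimate that the counts do not back, and neither gene was compared between genotypes. These estimates do enter the TPM sums, medians and rank correlations given above. Olfr1354 of 10-1 had the next highest TPM for its counted reads, 2.55 times the median ratio, and 26.3% of its windows were shared, mostly with Olfr1355. Sharing and this ratio did not always go together: Olfr1358, named with its values in view, shares 43.7% of its windows and had 1.03 times the median ratio, and Olfr805 shares 10.3% and had 2.18 times.

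Neighbours with near-identical coding sequences showed the same limit. Olfr772 and Olfr773 differ at 7 of 933 coding bases (99.3% identity). Olfr772 had 30 to 75 counts per library, and Olfr773 had 1 count in all 7 together. Olfr823 and Olfr824 differ at 12 of 945 (98.7%), with 3 to 15 and 9 to 40 counts. Within each pair the split of reads is uncertain. Olfr773, Olfr823 and Olfr824 were named for their sequence after their values were seen. The stretches below are the first 60 coding bases of Olfr247, which Gm10310 shares in full, and for the other pairs the 60 coding bases with most differences (coding bases 758 to 817 of Olfr772 and Olfr773, and 203 to 262 of Olfr823 and Olfr824). They are shown 5′ to 3′ from GENCODE vM21 transcripts, with the 3 differing bases of each pair in capitals, to show how little coding sequence separates the copies.
Olfr247: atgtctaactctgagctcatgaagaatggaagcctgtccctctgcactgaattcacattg
Olfr772: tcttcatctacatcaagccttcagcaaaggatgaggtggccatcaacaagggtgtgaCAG
Olfr773: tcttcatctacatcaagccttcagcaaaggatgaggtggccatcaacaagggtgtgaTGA
Olfr823: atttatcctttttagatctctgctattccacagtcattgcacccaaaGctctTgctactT
Olfr824: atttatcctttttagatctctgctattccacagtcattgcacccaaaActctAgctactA

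**Figure D2:**
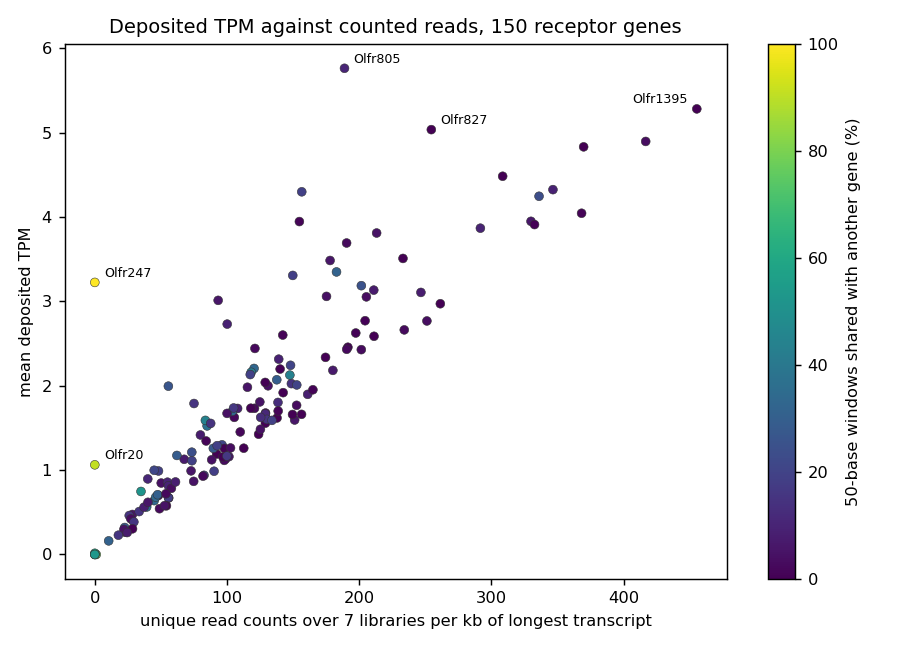
Mean deposited TPM (vertical axis) against read counts over the 7 libraries per kb of the longest transcript (horizontal axis), one dot for each of the 150 receptors, coloured by the percent of 50-base windows shared with another gene. Most receptors follow a common slope; Olfr247 (3.23 TPM) and Olfr20 (1.06 TPM) stand at 0 counts.

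Promoter windows were available for 125 of the 150 receptors (126 RefSeq entries on GRCm38.p6, 250 bases before to 50 after the start). In 97 entries the bases at the annotated start read ATG, which was not checked against the annotated coding start. Where it is the coding start, the last 50 bases follow the ATG and the 250 before it need not hold the promoter. Homeodomain-type motifs and sites for Ebf factors are known features of olfactory receptor promoters. On either strand, TAATTA was found in 19.1% of the entries, against 18.6% of 818 entries of other Olfr genes and 5.29% of all 32851 promoters. TAATGA was found in 35.7%, against 27.8% and 9.78%, and TATAAA in 35.7%, against 42.1% and 13.6%. The palindrome bound by Ebf factors, with 2 free central bases, was in none of the 126 entries, against 0.61% of other Olfr entries and 0.90% of all. The searched motifs can overlap one another. Receptors with TAATTA had a median of 1.21 TPM and those without it 1.63, and for TAATGA the medians were 1.72 and 1.55, given as a description only.

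Only 16 entries, of 15 receptors, started within 100 bases of the gene's 5′ end in the deposited table, and 10 of them held TAATGA, 5 TAATTA and 3 TATAAA. Windows from 3 of these receptors are printed 5′ to 3′ on the gene's own strand, with motif matches in capitals. Olfr332 is shown as the most abundant of 11-4, Olfr224 as a receptor of 11-4 with lower levels in neo (described further on), and Olfr1357 of 10-1 as an entry with TAATTA, chosen after its values were seen. Olfr332 is at chr11:58492450-58492749, Olfr224 at chr11:58570519-58570818 and Olfr1357 at chr10:78618025-78618324, all on the minus strand of GRCm38.p6. The Olfr332 window held none of the 4 motifs, which says only that those letters are not in it.
Olfr332: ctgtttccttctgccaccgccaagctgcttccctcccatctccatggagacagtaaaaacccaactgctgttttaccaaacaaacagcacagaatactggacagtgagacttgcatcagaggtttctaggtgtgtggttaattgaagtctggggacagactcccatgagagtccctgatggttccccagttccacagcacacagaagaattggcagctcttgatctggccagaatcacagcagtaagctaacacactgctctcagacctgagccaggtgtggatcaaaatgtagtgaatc
Olfr224: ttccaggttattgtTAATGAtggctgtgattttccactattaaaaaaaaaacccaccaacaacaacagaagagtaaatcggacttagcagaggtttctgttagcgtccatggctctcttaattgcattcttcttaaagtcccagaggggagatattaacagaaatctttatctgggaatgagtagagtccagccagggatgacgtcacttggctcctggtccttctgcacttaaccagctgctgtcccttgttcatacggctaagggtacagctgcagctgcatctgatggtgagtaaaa
Olfr1357: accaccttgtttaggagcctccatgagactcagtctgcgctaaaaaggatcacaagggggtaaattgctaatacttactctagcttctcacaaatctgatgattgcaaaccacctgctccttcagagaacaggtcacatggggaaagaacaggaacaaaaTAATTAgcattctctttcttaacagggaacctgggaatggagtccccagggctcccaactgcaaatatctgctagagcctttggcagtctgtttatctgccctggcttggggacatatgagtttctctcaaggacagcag

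For the genotypes, the summed receptor counts were first taken per 1000000 gene counts, written ppm here. The 150 receptors together made up 460 ppm in WT (95% Wilson binomial interval 451 to 469, counting error only). In KO they made up 443, 409 and 352 (401 ± 46.2, SD, n = 3) and in neo 556, 416 and 484 (486 ± 69.9, SD, n = 3). The neo mean was 1.21 times the KO mean, but neo library 2 lay among the KO libraries, and the difference did not pass an exact permutation test (two-sided p = 0.2; with 3 against 3 the smallest possible p is 0.1). Without neo library 1, which had the highest sum, the difference fell from 84.4 to 49.03 ppm (exact p = 0.4). The markers of mature olfactory neurons took 0.285 ± 0.0161% of the KO counts and 0.347 ± 0.0158% of the neo counts (SD over 3 libraries; exact p = 0.1). Per 100 of those marker counts the receptors had 14.04 ± 0.9 counts in KO and 14 ± 1.82 in neo (exact p = 1). As a share of all numbered Olfr counts they held 12.4% in WT, 12 ± 0.632% in KO and 12.5 ± 0.414% in neo (exact p = 0.4), a quantity added after the data were seen.

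By chromosome, the chromosome 10 receptors had 222 ppm in WT, 220, 190 and 161 in KO and 281, 193 and 233 in neo. The chromosome 11 receptors had 238 in WT, 223, 220 and 190 in KO and 276, 223 and 251 in neo. On chromosome 10 the groups overlapped (neo 1.24 times KO, exact p = 0.2). On chromosome 11 neo library 2 exceeded KO library 1 by a margin that vanishes in rounding, and the groups were just separate (1.19 times, exact p = 0.1, the smallest possible). Without neo library 1 the differences were 22.8 ppm on chromosome 10 (exact p = 0.4) and 26.2 ppm on chromosome 11 (exact p = 0.2, the smallest possible with 2 against 3). The log2 ratio of chromosome 11 to chromosome 10 counts was 0.10 in WT, 0.02, 0.21 and 0.24 in KO and -0.02, 0.21 and 0.11 in neo. It differed between neo and KO by -0.06 (exact p = 0.5), so no difference between the chromosomes was detectable with these libraries.

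Counts were also summed per subcluster. In 10-1 the values were 20.3 ppm in WT, 21.5, 18.6 and 17.6 in KO and 29.5, 23.0 and 23.99 in neo, with KO and neo separate. In 11-1 they were 74.6 in WT, 67.4, 68.0 and 56.6 in KO and 90.4, 73.4 and 82.1 in neo, again separate. For both the exact p was 0.1, and 0.35 after Benjamini-Hochberg adjustment over the 7 subclusters with counts. Without neo library 1 the difference went from 6.28 to 4.27 ppm in 10-1 and from 17.97 to 13.7 ppm in 11-1. The 5 others overlapped, with neo at 1.23 times KO in 10-2, 1.28 in 11-2, 1.18 in 11-5, 1.095 in 11-4 and 1.07 in 11-6 (adjusted exact p of 0.42 to 0.6). In 4 of these 5, all but 11-2, leaving out a library moved the difference by over 1.5 times. In 10-2 the 39.0 ppm became 18.6 without neo library 1, 25.3 without KO library 3 and 58.8 without neo library 2. In 11-4 the 5.67 ppm became 1.92 without neo library 1, 3.61 without KO library 1 and 10.9 without neo library 2. In 11-5 the 12.7 ppm became 6.82 without KO library 3, and in 11-6 the 0.463 ppm became -0.132 without KO library 3, 0.209 without neo library 1 and 0.830 without KO library 2. WT lay below the neo mean in 10-1, 10-2, 11-1, 11-2 and 11-5 and above it in 11-4 (67.2 against 65.6) and 11-6 (7.08 against 6.95).

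**Figure D3:**
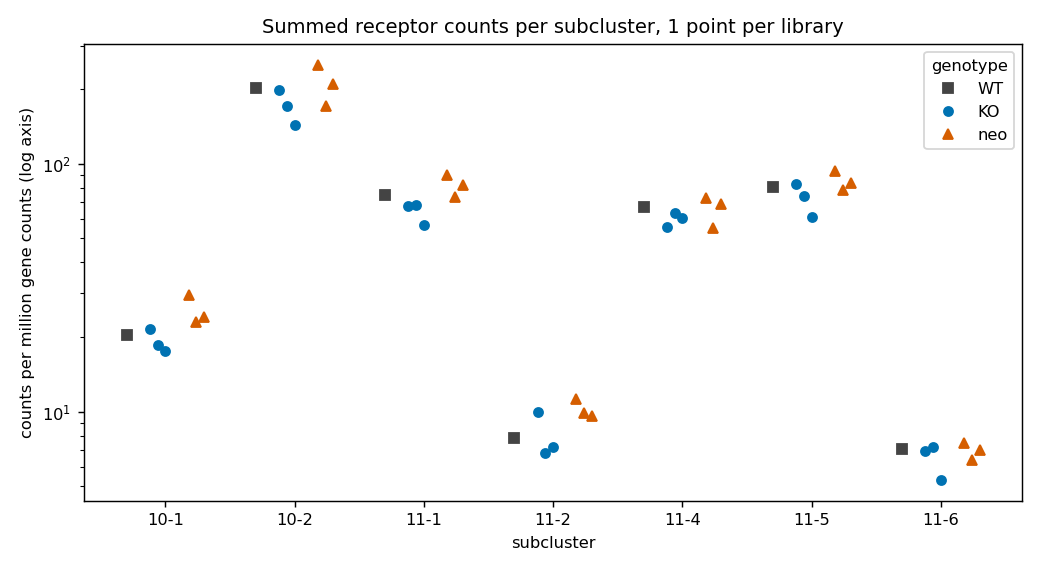
Summed receptor counts per 1000000 gene counts (vertical log axis) for the 7 subclusters with counts (horizontal axis), one point per library, with squares for WT, circles for KO and triangles for neo. KO and neo points are separate in 10-1 and 11-1 and overlap in the other 5 subclusters, and 10-2 is highest with 144 to 251 ppm.

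Gene by gene, no receptor was called between neo and KO after adjustment. Of 136 receptors that passed the filter on low counts, 0 were called by edgeR's quasi-likelihood test at a Benjamini-Hochberg adjusted p under 0.05, against 0.017% of 17638 genes. DESeq2 also called 0 receptors, against 101 of those genes (0.573%). The authors' deposited table lists 139 receptors with an adjusted p, 0 of them under 0.05, against 79 of 18429 genes (0.429%). At an unadjusted p under 0.05, 13 were higher in neo (9.56%, against 4.59% of all genes) and 3 lower (2.21%, against 4.72%). In 96 receptors (70.6%) the fitted log2 change was positive, against 49.6% of all genes. The median log2 change was 0.16, that of 837 other tested Olfr genes 0.26 and that of all genes 0.00. It was 0.16 on chromosome 10 and 0.21 on chromosome 11. KO and neo libraries were separate with neo higher in 20 receptors (14.7%, against 7.58%) and with neo lower in 2 (1.47%, against 7.98%). Of the mature neuron markers given above, 8 of 8 had a positive fitted change (median 0.25), and of the bone genes 0 of 3 (median -1.39). Summed macrophage genes ran from 19.8 to 23.6 CPM in KO and from 23.7 to 42.6 in neo (3 of 3 positive, median 0.78, none at 0). Summed precursor genes ran from 334 to 389 CPM in KO and from 407 to 477 in neo (4 of 6 positive, none at 0). Summed immature neuron genes ran from 885 to 1014 CPM in KO and from 809 to 972 in neo (2 of 6 positive, median -0.03). Sustentacular genes overlapped too, at 2445 to 2677 CPM in KO and 2668 to 3318 in neo (5 of 5 positive). Sums of horizontal basal (3 of 4 positive), respiratory ciliated (2 of 3) and vomeronasal genes (2 of 2 tested) also overlapped. The part of any of these in the receptor values was not tested. Of the counts at an unadjusted p, the 13 higher became 6 without KO library 3, 8 without KO library 2 and 22 without KO library 1. Without neo library 1, 11 were higher and 4 lower, 91 had a positive change and the median was 0.15.

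The 14 receptors left out by the filter had low or no counts. Olfr779, Olfr247, Olfr1371, Olfr1373, Olfr20 and Olfr331 had 0 counts in the 7 libraries together, Olfr773 had 1, and the others (Olfr774, Olfr382, Olfr785, Olfr823, Olfr320, Olfr803 and Olfr1390) had 15 to 82.

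The smallest p was that of Olfr1395 (ENSMUSG00000050763.4, chromosome 11, 49142274 to 49150453), the most abundant receptor of 11-1, which shares no window with another gene. It had 9.06 CPM in WT, 9.43, 8.63 and 7.57 in KO and 11.96, 13.0 and 14.1 in neo. Every neo library was above every KO library and WT. The log2 change was 0.61 (SE 0.15, edgeR adjusted p = 0.424). Its neighbour Olfr1396, named after its values were seen, also had separate groups (log2 change 0.58, SE 0.23).

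Olfr1352 of 10-1 had 5.75 CPM in WT, 6.43, 4.98 and 3.59 in KO and 9.11, 8.61 and 7.58 in neo, and only 0.69% of its windows are shared. KO spread widely there, yet its highest library was under the lowest of neo (log2 change 0.76, SE 0.23). Olfr777 of 10-2 had 7.77 CPM in WT, 5.80 to 7.16 in KO and 8.07 to 10.2 in neo (log2 change 0.58, SE 0.18). Olfr9, the first gene of 10-2, was a low receptor with 0.690 CPM in WT, 0.608 to 0.735 in KO and 1.19 to 1.32 in neo (log2 change 0.88, SE 0.30). Those levels rest on 11 to 28 counts per library, and 32.9% of the windows of Olfr9 are shared, nearly all with Olfr763.

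**Figure D4:**
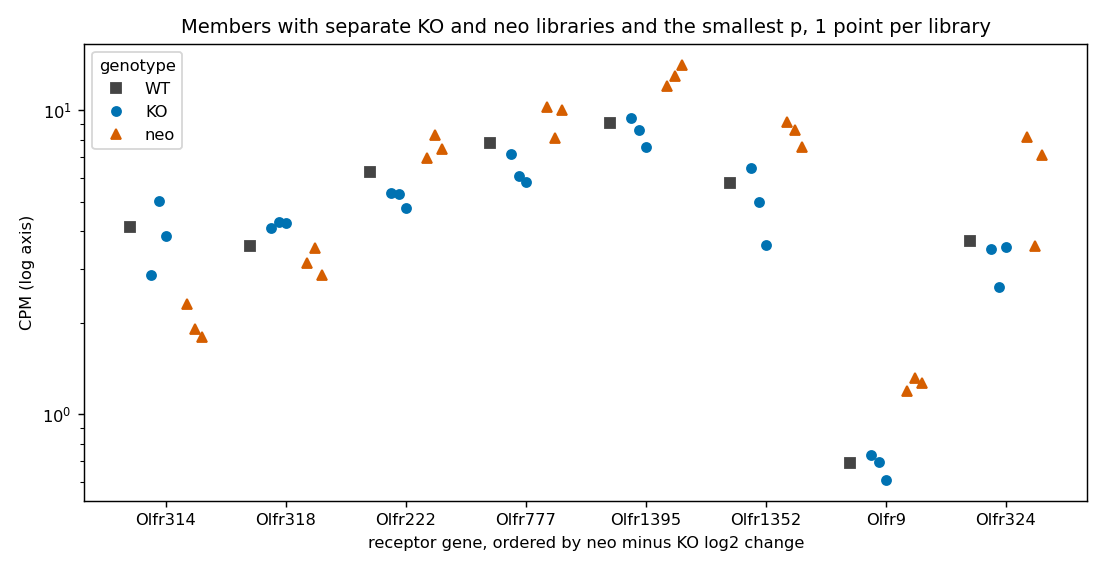
CPM (vertical log axis) in each library of the 8 receptors with separate KO and neo libraries and the smallest p (horizontal axis, ordered by log2 change), with squares for WT, circles for KO and triangles for neo. Olfr314 and Olfr318 are lower in every neo library than in every KO library and the other 6 higher; the margin is smallest for Olfr324, at 3.59 against 3.54 CPM.

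In subcluster 11-4 receptors had fitted changes of both signs, and 0 passed the adjusted threshold. All 3 receptors lower in neo at an unadjusted p, Olfr314, Olfr224 and Olfr328, and both with separate and lower neo libraries, Olfr314 and Olfr318, lie in it. The number lower at an unadjusted p was 1 without KO library 3, 2 without KO library 2 or neo library 2, 4 without KO library 1 or neo library 1, and 1 where at least 50 counts in 3 libraries were required. No tested receptor of the other subclusters was lower in neo by either measure, but whether 11-4 differs from them was not tested. In 11-4, 13 of 21 tested receptors had a positive log2 change (median 0.15), against 49.6% of all genes. Of these 21, 2 had separate libraries with neo lower and 4 with neo higher, against 7.98% and 7.58% of all genes. At an unadjusted p under 0.05, 3 of the 21 were lower and 2 higher, against 4.72% and 4.59%.

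Olfr314 (chromosome 11, 58782952 to 58788768) had 4.14 CPM in WT, 2.88, 5.04 and 3.87 in KO and 2.30, 1.91 and 1.80 in neo. All neo libraries were under KO and WT, and its sequence is nearly unique (0.19% of windows shared). The log2 change was -0.96 (SE 0.27, edgeR adjusted p = 0.459). Olfr318 had 4.10, 4.29 and 4.25 CPM in KO and 3.15, 3.53 and 2.86 in neo, with WT between (3.59 CPM; log2 change -0.40, SE 0.20). It shares 16.1% of its windows, mostly with Olfr320.

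Olfr224 (58565856 to 58570553) had 3.17 CPM in WT, 2.02, 3.32 and 3.87 in KO and 1.15, 1.195 and 2.06 in neo. Its groups overlapped narrowly, because KO library 1 lay just under neo library 3. The log2 change was -1.08 (SE 0.34, edgeR adjusted p = 0.474). Olfr328 (58550854 to 58555636), the preceding receptor of the subcluster and one singled out with its values in view, had the same order of libraries within KO, with 2.45 CPM in library 1 against 4.93 and 5.41, and 1.83, 1.73 and 2.86 in neo (log2 change -1.01, SE 0.34). These neighbours share 14.7% and 19.99% of their windows with other genes, each most with the pseudogene Olfr329-ps.

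Close by in 11-4, Olfr324 (58595114 to 58600783) had higher values in neo. It had 3.72 CPM in WT, 3.49, 2.63 and 3.54 in KO and 8.13, 3.59 and 7.11 in neo. Neo library 2 was barely above KO and below WT, and the log2 change of 0.97 (SE 0.31) became 0.74 without neo library 1. At the far end, Olfr222 had 6.25 CPM in WT, 4.75 to 5.33 in KO and 6.98 to 8.31 in neo (log2 change 0.56, SE 0.17) and shares no window. None of these receptors passed the adjusted threshold.

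**Figure D5:**
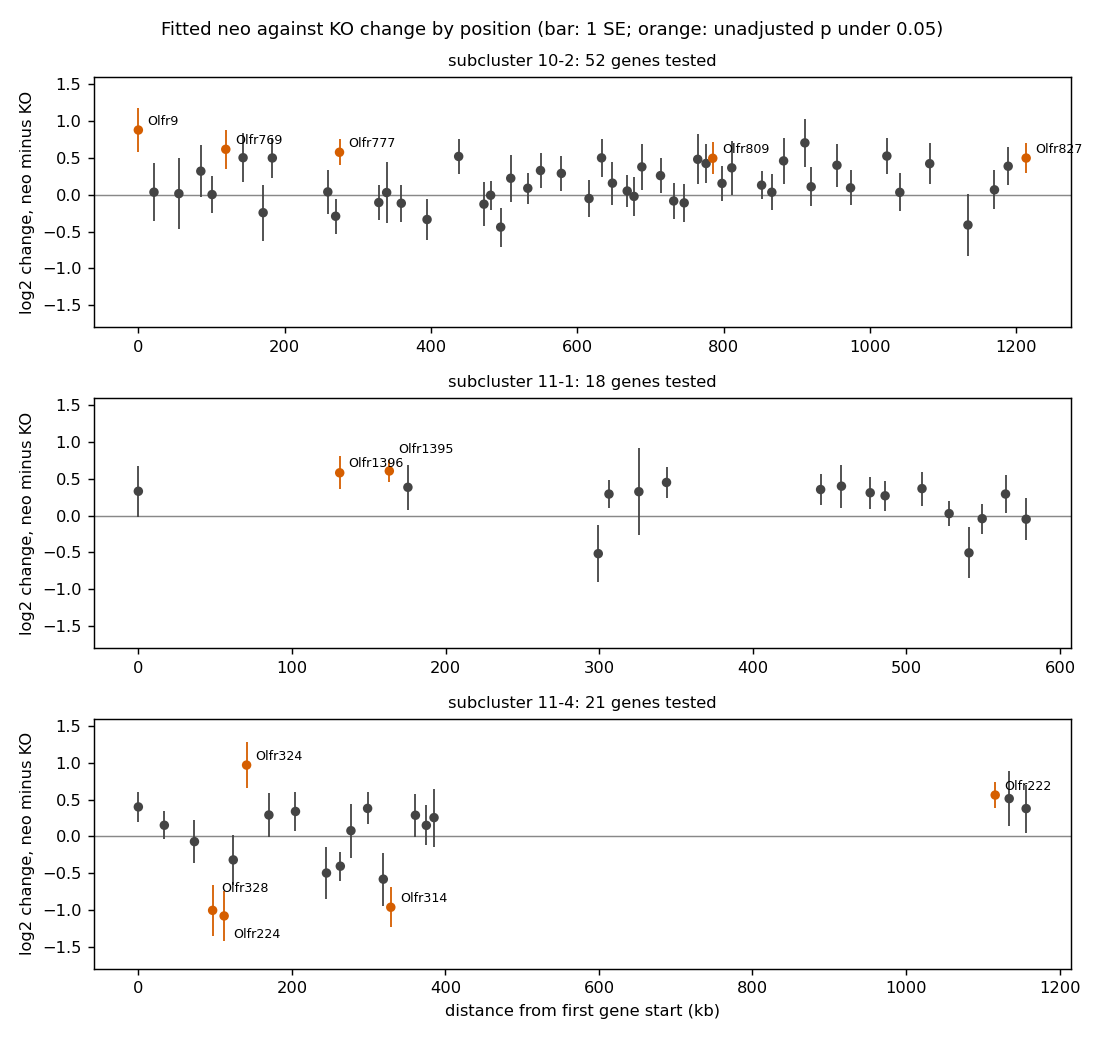
Fitted log2 change, neo minus KO (vertical axis, bars of 1 SE), against distance from the first gene start in kb (horizontal axis) for tested receptors of 10-2, 11-1 and 11-4, orange where the unadjusted p is under 0.05. Orange points are all above 0 in 10-2 and 11-1 and lie on both sides in 11-4, where Olfr328 and Olfr224 are neighbours at -1.01 and -1.08 and Olfr324 is at 0.97.

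Against WT, which is a single library assumed to vary like the others, 0 of 141 tested receptors were called in either comparison by edgeR (background 0.00523% of 19123 genes for KO and 0.0105% for neo). DESeq2 also called 0 in each (background 0.00523% for KO and 0.0157% for neo). Both comparisons share the WT library, so their values are given side by side only. KO against WT also cannot be told apart from sex, as described above. KO had a positive log2 change in 50 receptors (35.5%, against 51.7% of genes) with a median of -0.09, and neo in 81 (57.4%, against 51%) with a median of 0.05. At an unadjusted p, 1 receptor was higher in KO and 0 lower (background 0.288% and 0.439%), and 4 were higher and 4 lower in neo (1.24% and 1.72%). The counts moved when a library was left out. The 1 higher in KO became 0 without KO library 1, without KO library 3, without each neo library and by DESeq2. The 4 higher in neo became 1 without KO library 2, neo library 2 or neo library 3 and 0 by DESeq2. The 4 lower in neo became 2 without KO library 2 and by DESeq2. The median for KO went to -0.19 without KO library 1 and to -0.03 without KO library 3, and that for neo to 0.10 without neo library 1 and to 0.14 without neo library 2. All KO libraries were under WT in 41 receptors (29.1%, against 20.9%) and above it in 13 (9.22%, against 19.5%). All neo libraries were above WT in 49 (34.8%, against 21.7%) and under it in 37 (26.2%, against 22.1%).

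Olfr1375, the last gene of 11-2, had the largest change with 0.276 CPM in WT against 0.643 to 0.796 in KO and 0.665 to 0.896 in neo. This was 6 counts in WT and 10 to 16 elsewhere, with a log2 change of 1.36 (SE 0.60) in KO and 1.41 (SE 0.60) in neo. Olfr412, also low, had 0.690 CPM in WT, 0.750 to 1.71 in KO (log2 change 0.88, SE 0.54) and 1.55 to 1.86 in neo. Olfr410 had 2.76 CPM in WT and 3.31 to 4.72 in KO, a log2 change of 0.47 (SE 0.34) that changed sign in TPM. Olfr1385 of 11-1 had 2.34 CPM in WT and 3.72 to 4.77 in neo (log2 change 0.84, SE 0.35).

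In the other direction, Olfr789 of 10-2 had 5.29 CPM in WT, 2.65 to 3.92 in KO (log2 change -0.62, SE 0.35) and 1.96 to 3.06 in neo (log2 change -1.06, SE 0.34). Both mutant groups were wholly under WT. Olfr772 had 3.36 CPM in WT and 1.66 to 2.76 in KO (log2 change -0.63, SE 0.37), with the shared sequence described above, and Olfr332 had 11.7 CPM in WT and 7.40 to 9.74 in KO (-0.42, SE 0.25). Olfr314 and Olfr224 of 11-4 were lower in neo than in WT too (log2 changes -1.04 and -1.12, SE 0.35 and 0.45), while in KO they were near WT (-0.07 and -0.04). The adjusted p of each of these receptors was 1 for KO and 0.9999 for neo (edgeR).

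Genes that carry the receptor signal were examined beside the receptors. Of 12 genes of odorant transduction and receptor traffic, 0 were called between neo and KO and all 12 had a positive log2 change (median 0.17), against 49.6% of all genes. The list is not independent of the mature neuron markers, since 6 genes are in both. Rtp1, which carries receptors to the cell surface, had 340 to 382 CPM in KO and 401 to 427 in neo (log2 change 0.20, SE 0.09, edgeR adjusted p = 0.545). Adcy3 had 200 to 252 CPM in KO and 248 to 307 in neo (0.25, SE 0.12). Of 14 genes linked to receptor choice, 0 were called and 8 had a positive change (median 0.05), against the same 49.6%. Among them Lhx2, a homeodomain factor, had 232 to 306 CPM in KO and 251 to 326 in neo (0.08, SE 0.14), and Ebf4 had 47.5 to 69.3 in KO and 72.4 to 87.2 in neo (0.39, SE 0.15, edgeR adjusted p = 0.502). Eif2ak3 went the other way, with 54.9 to 65.3 CPM in KO and 46.8 to 51.9 in neo (-0.29, SE 0.10, edgeR adjusted p = 0.498). At an unadjusted p under 0.05, 1 of the 14 was higher in neo and 1 lower, against 4.59% and 4.72% of all genes. Against the single WT library, 1 of the 12 signalling genes had a positive change in KO (median -0.09), against 51.7% of all genes. In neo 10 of the 12 did (median 0.06), against 51%, and 0 were called in either comparison.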

How the data were processed

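RNA from whole olfactory epithelium was sequenced after poly(A) capture, per the labels' protocols. Deposited by the authors were read counts as whole numbers for each gene, TPM for each gene, and a table of KO against neo with log2 fold changes and p-values. The submitters' processing notes name Trimmomatic 0.35, STAR 2.5.1b, RSEM and DESeq2 1.18.1 on GRCm38 (mm10), without their order. The counts are read here as stranded and uniquely placed, from the table's name and its multimapping row. Deposited TPM sums to 1000000 per library. How it treats shared reads is not stated.

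Members and lists were chosen with earlier results of these data known. Summary rows that name no gene were left out of totals: 14.5 to 19.6% of reads were multimapping and 14.2 to 17.4% matched no feature. Gm42418 held 9.83 to 16.5% of gene counts. Counts were tested with edgeR 4.0.16 (quasi-likelihood, TMM, filterByExpr with a minimum count of 10 and total of 15, Benjamini-Hochberg over all genes tested), neo against KO on those 6 libraries and each against WT on all 7. The edgeR step was run on simulated counts with a single fixed dispersion, and no result of that run is used here. Alternatives used DESeq2 1.42.0 and limma 3.58.1 in R 4.3.3. Summed shares were compared with exact permutation tests (scipy 1.17.1, two-sided). Intervals and limits cover counting error only. No 2 libraries agreed within sampling noise (chi-square over degrees of freedom of at least 8.96).

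Named receptors were, by rule, the highest mean TPM of each subcluster of at least 3 genes and the 5 highest overall; in neo against KO up to 6 per direction with separate libraries and the smallest p; up to 3 per direction against WT; and the 3 with the highest TPM for their counts among those with at least 0.5 TPM. Shared windows and coding sequences came from GENCODE vM21 (150 of 150 genes matched, 149 with the same coordinates), promoters from RefSeq. FPKM and isoform tables were not used here.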

Additional observations from a re-analysis of the deposited data

How the results depend on the processing

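No receptor was called under any of the 15 alternatives for neo against KO or the 14 for each comparison with WT; the lowest adjusted p were 0.127, 0.9997 and 0.482. The WT library cannot be left out. Leaving out each KO or neo library kept the median log2 change of neo against KO between 0.12 and 0.28 and the number of higher receptors at an unadjusted p between 6 and 22. A minimum of 50 counts in 3 libraries kept 60 receptors, 47 with a positive change. In log2 TPM the median of all genes itself moved to 0.09 (pseudocount 0.1) and 0.08 (pseudocount 1), and 105 of 136 receptors were positive.

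Per mature neuron marker counts the difference in summed receptor counts between neo and KO turned to -0.0413 counts per 100 marker counts for the 150 receptors (exact p = 1) and to -0.179 for chromosome 11 (exact p = 0.8), while the counts of those markers were as given in the report. The chromosome ratio ranged from -0.13 to 0.00132 on the log2 scale when a library was left out, reaching the positive value without neo library 1. The 11-6 difference ranged from -0.132 to 0.830 ppm, negative without KO library 3. Olfr410 in KO against WT was -0.42 and -0.25 in log2 TPM with pseudocounts of 0.1 and 1. The cause of these reversals was not tested. Deviations of same-numbered KO and neo libraries from their group means correlated at -0.144, -0.048 and 0.187. Those of libraries with unlike numbers correlated at -0.187 to 0.237. With means of only 3 libraries, these values cannot decide whether the numbers pair the libraries. With a replicate block 0 receptors were called (lowest edgeR adjusted p 0.581), and 15 were higher and 3 lower at an unadjusted p. The blocked exact p of the summed difference of 84.4 ppm was 0.25, the smallest it can give. Depth limits single receptors: the median receptor had 36.5 to 62.0 counts per library.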
